A study of Mus musculus with 5 samples.

Results

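The variable segment genes of the immunoglobulin loci were examined in bone marrow derived dendritic cells (BMDCs) with and without forced expression of Irf8, a transcription factor of the interferon regulatory factor family. The members were all genes of the deposited table whose biotype marks an immunoglobulin variable, diversity or joining segment or a pseudogene of one. They numbered 51 of the 1355 genes in the table. Of these, 50 were variable segment genes and 1, Ighv1-32, was a variable segment pseudogene, while 0 joining or diversity segments were listed. The heavy chain locus (Igh) gave 22 members, the kappa light chain locus (Igk) 27 and the lambda light chain locus (Igl) 2. Because the table held only genes that had already passed the thresholds of the study in this same contrast, the calls given here describe the list and do not test it, and nothing can be said of segments that were not listed.

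The 3 Irf8-OE samples came from mice that the labels call Irf8-OE. Their genotype in the study is Irf8 CAG-LSL Itgax Cre. In these mice an Irf8-Flag transgene at the H11 locus, behind the CAG promoter and a stop cassette, is switched on by a Cre recombinase driven from Itgax, the CD11c gene of dendritic cells. There were 2 control samples, labelled wild type. In the study their genotype is Irf8 CAG-LSL, which would carry the transgene with its stop cassette in place. Mice of both groups were 8 weeks old and stated to be male and on the C57BL/6 background. Both groups shared the culture, in which bone marrow cells grew with 200 ng/ml Flt3L and 5 ng/ml GM-CSF, were replated on day 9 and were collected as non-adherent cells on days 15 to 16, and both are labelled as stimulated with TNFa. No source used here says whether the samples of a group were separate mice, cultures or pools, so any error given measures the spread between these samples, which may be technical. All values are normalized counts, the reads of a gene divided by 1 size factor per sample, unless a scale per kilobase (kb) of gene length is named.

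The targeted gene Irf8 measured 7141, 6519 and 6021 in Irf8-OE and 2835 and 2747 in the controls. The listed genes held 646123 to 1062127 reads per sample, a total that falls short of the library depth because the other genes are not analysed here. Xist, which is transcribed from the inactive X chromosome of female cells, measured 10772 to 13476 in Irf8-OE and at most 1.12 in the controls. Of the 6 listed genes on the Y chromosome, 5 (Ddx3y, Eif2s3y, Kdm5d, Uty and Gm29650) were detected in both controls and in none of the Irf8-OE samples, while Gm47283 measured 246 to 561 in Irf8-OE and 72.9 to 131 in the controls. The sex-linked genes thus differed with the genotype, and in Irf8-OE they went against the stated male sex of the mice. Sex and genotype cannot be told apart in these samples. Of the 16 markers of dendritic cells examined, 2 were listed (Itgae, which encodes CD103, and Siglech), so that the labelled cell type could not be checked against its other markers.

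An antibody is built of heavy and light chains, and each chain carries a variable region that binds antigen and a constant region that sets its class. In developing B cells a variable (V) segment is joined to a joining (J) segment, with a diversity (D) segment between them at the heavy chain locus, and each cell normally keeps a single productive heavy chain and a single productive light chain. The V segments of a locus therefore record which rearrangements a population of B-lineage cells carries: a clone uses a single V segment per chain, and a mixed population uses many. Unrearranged V segments can also be transcribed at a low level. The constant segments, among them Ighm for IgM, Igha for IgA and Igkc for kappa chains, are shared by cells with different V segments.

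All 51 members matched GENCODE vM21 (GRCm38) by identifier with the same start and end, and all had 2 exons, the leader exon and the V exon. The ends of their V exons are the part that meets the joining segment and begins the third complementarity-determining region, the part of the chain that varies most. The ends of 10 members are shown because the results turn on them. Ighv1-23 and Ighv1-32 were the members called lower in Irf8-OE. Ighv6-3, Ighv7-1, Ighv1-72 and Igkv15-103 were the only other members with reads in a control. Igkv10-96 and Iglv1 were the most abundant segments of their loci in Irf8-OE, and Igkv10-94 and Iglv2 are their relatives. Each is the last 60 bases of the GENCODE vM21 transcript, 5′ to 3′, in lower case, with the codon of the conserved cysteine in capitals; a stop codon in the same reading frame is also in capitals.
Ighv1-23: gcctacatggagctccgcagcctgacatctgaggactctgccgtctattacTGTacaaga
Ighv1-32: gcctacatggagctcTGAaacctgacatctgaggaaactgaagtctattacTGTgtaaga
Ighv6-3: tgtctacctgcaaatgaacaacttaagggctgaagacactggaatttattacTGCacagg
Ighv7-1: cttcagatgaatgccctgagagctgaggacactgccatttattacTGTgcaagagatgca
Ighv1-72: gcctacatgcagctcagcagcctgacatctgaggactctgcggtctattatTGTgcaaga
Igkv15-103: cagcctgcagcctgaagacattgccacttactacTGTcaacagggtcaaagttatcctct
Igkv10-96: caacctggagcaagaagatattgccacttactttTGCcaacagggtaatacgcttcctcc
Igkv10-94: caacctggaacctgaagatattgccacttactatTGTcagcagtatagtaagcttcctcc
Iglv1: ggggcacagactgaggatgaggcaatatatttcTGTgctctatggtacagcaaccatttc
Iglv2: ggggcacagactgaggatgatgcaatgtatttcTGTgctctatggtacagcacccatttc

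The end of Ighv1-23 lay at chr12:114764450-114764509 and that of Ighv1-32 at chr12:114835223-114835282, both on the minus strand. Igkv10-96 ended at chr6:68631963-68632022 on the minus strand, Igkv15-103 at chr6:68437866-68437925 on the plus strand and Iglv1 at chr16:19085017-19085076 on the minus strand. All 51 members held a tyrosine codon, a codon for tyrosine or phenylalanine and then the cysteine codon near their end, and the cysteine codon was TGT in 41 members and TGC in 10. After it the heavy chain ends shown ran on for 5 to 12 bases and the light chain ends for 23 or 24. In the 85 codons before the cysteine, in its reading frame, 1 member held stop codons. This was the pseudogene Ighv1-32, with 3 of them, the last of which (TGA) lay 12 codons before the cysteine and is seen in the sequence above.

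Nearly all listed V segments were higher in Irf8-OE and had no reads in the controls. By limma on log2(normalized counts + 1), called where the absolute log2 fold change passed 1 and the Benjamini-Hochberg adjusted p stayed under 0.05, all 51 members were called, with 49 higher in Irf8-OE and 2 lower. Of all 1355 listed genes, 99.1% were called, 58.1% higher and 41.0% lower, and the groups did not overlap in any listed gene. Of the members, 45 had 0 reads in both controls and 6 had reads in at least 1 control (Ighv1-23, Ighv6-3, Igkv15-103, Ighv7-1, Ighv1-72 and Ighv1-32). The median log2 fold change of the members was 3.60, against 1.14 over all listed genes and 1.83 over the listed genes called higher. A fitted fold change against 0 reads depends on the added 1, and with the members at 0 placed at the bound that 3 reads per library allow, the median was 1.96. This lay near the 1.83 of the listed genes called higher, whose values were not placed at a bound. Under quantile normalization, which lowered the median log2 fold change of all listed genes by 0.36, 32 members were called higher, and with 10 added in place of 1, 33 were. The share of all listed genes called higher under these settings is not given here, so these counts do not set the members apart from the list.

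**Figure D1:**
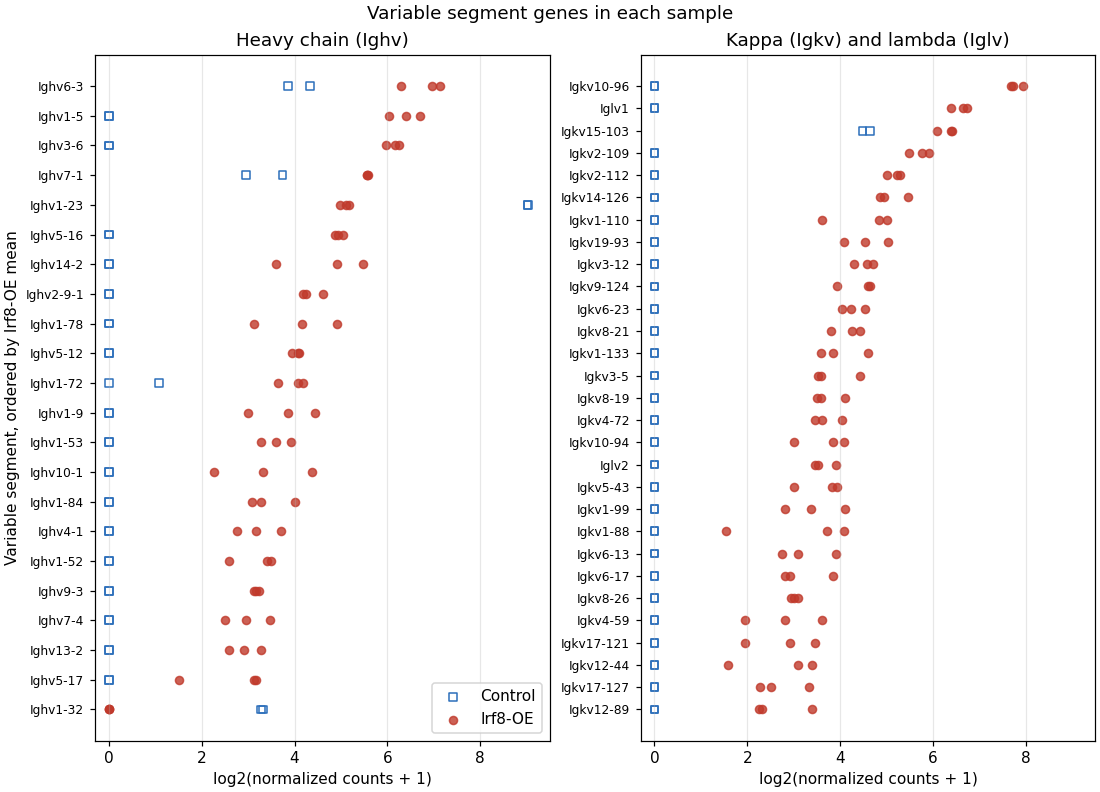
Normalized counts of the 51 variable segments on a log2(value + 1) axis, with 3 filled points for the Irf8-OE samples and 2 open squares for the controls in each row. Of the members, 45 have both control squares at 0, whereas Ighv1-23 stands alone with both squares near 9 and Ighv1-32 is the only member with its Irf8-OE points at 0.

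Most members were low in Irf8-OE too. Of the 49 called higher, 15 had a mean under 10 normalized counts in Irf8-OE, 27 a mean of 10 to 50 and 7 a mean of 50 or more. In 47 members each Irf8-OE sample held at least 3 reads. The members called higher had between 18 and 686 reads over the 3 Irf8-OE samples. For the members at 0 in both controls, the Irf8-OE mean was at least 1.85 to 70.7 times higher than the control floor of 3 reads per library, a floor of 3.13 normalized counts, with a median bound of at least 3.90-fold. Of these, 7 were at least 10-fold higher, and 3 had a bound under 2, so that for them these reads do not place a 2-fold difference beyond the floor. In a bulk sample fewer cells of a type and less RNA per cell cannot be told apart.

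Among the heavy chain segments, Ighv1-23 (chromosome 12, 114764450 to 114764883) behaved unlike the rest. It measured 30.7, 33.6 and 35.2 in Irf8-OE and 518 and 523 in the controls. It was the most abundant member in both controls by far, and each Irf8-OE sample lay well under each control. The control mean was 15.7 times the Irf8-OE mean (log2 fold change -3.94, SE 0.14). Per kb of gene length, its level was 1483 in the controls and 94.4 in Irf8-OE. It lies 1335 kb from the heavy chain joining segments. Its transcript is 98.0% identical to that of Ighv1-15, which was not listed, and the longest run of bases that both share is 88.

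The pseudogene Ighv1-32, with its in-frame stop codons, was the other member called lower. It measured 8.99 and 8.64 in the controls, from 8 and 9 reads, and 0 reads came from any Irf8-OE sample. The control mean was at least 3.04-fold higher than the Irf8-OE floor of 2.90 normalized counts. Ighv1-32 and Ighv1-23 lie 70.3 kb apart in the same family. Their transcripts, both of 351 bases, differ at 61 positions (82.6% identity), and the longest run they share is 27 bases.

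Ighv6-3 had the highest mean of the heavy chain segments in Irf8-OE, per kb as well (319), although in sample 1 Ighv1-5 lay above it (262 against 218 per kb). It measured 77.6, 123 and 140 in Irf8-OE and 13.5 and 19.2 in the controls (log2 fold change 2.70, SE 0.31). The lowest Irf8-OE sample was well above the higher control, but the Irf8-OE samples differed among themselves by 9.37 times the variance that counting alone would give. Ighv7-1 measured 46.0, 46.7 and 46.2 in Irf8-OE and 12.4 and 6.72 in the controls (log2 fold change 2.22, SE 0.30). Here the Irf8-OE samples were almost equal, with a coefficient of variation (CV) of 0.751%, the smallest of all members. Ighv1-72 had 46 reads over the Irf8-OE samples and 1 read over the controls, a ratio of 28.6 after scaling, with an exact 95% counting interval of 4.88 to 1153.

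The remaining abundant heavy chain segments had no control reads. Ighv1-5 measured 104, 84.0 and 64.3 in Irf8-OE, at least 26.9-fold above the control floor. Ighv3-6 measured 70.9, 61.6 and 75.3, at least 22.2-fold above it. Ighv5-16 measured 29.7, 31.7 and 28.1 (at least 9.55-fold). Its variance was 0.114 times that from counting alone, so its closeness does not show a steadier level. Ighv14-2 measured 43.1, 28.9 and 11.0 (at least 8.87-fold), with a variance 9.40 times that from counting alone. Ighv2-9-1 measured 17.3, 23.3 and 18.1, at least 6.26-fold above the floor.

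The kappa segments held the most abundant member of Irf8-OE. Igkv10-96 (chromosome 6, 68631963 to 68632442) measured 205, 212 and 246 in Irf8-OE and had 0 reads in both controls, at least 70.7-fold higher. Per kb its Irf8-OE level was 616, against 319 for Ighv6-3 and 246 for Iglv1. The 3 samples had a CV of 9.92%. Its relative Igkv10-94, with 95.4% identity and a longest shared run of 131 bases, measured 13.4, 15.9 and 7.03 in the same samples.

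Igkv15-103 was the only kappa segment with control reads. It measured 67.1, 83.1 and 84.4 in Irf8-OE and 21.4 and 24.0 in the controls (log2 fold change 1.74, SE 0.21). It thus supplied the whole kappa sum of both controls. All other kappa members were at 0 in both controls. Igkv2-109 measured 59.4, 43.9 and 53.2 (at least 16.7-fold), and its family relative Igkv2-112 measured 38.3, 36.4 and 31.1 (at least 11.3-fold). Igkv14-126 measured 29.7, 42.9 and 28.1, at least 10.7-fold above the floor. Per kb of gene length Igkv2-109 was the highest of these 3 in Irf8-OE samples 1 and 3 (159 and 142), while in sample 2 Igkv14-126 (120) and Igkv2-109 (117) were nearly equal. Igkv19-93 (22.0, 31.7 and 16.1), Igkv3-12 (23.0, 18.7 and 25.1) and Igkv9-124 (14.4, 23.3 and 24.1) overlapped one another over the Irf8-OE samples, per kb as well (40.7 to 87.4), with bounds of at least 7.45-, 7.12- and 6.59-fold.

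Of the lambda segments, of which 2 of the 3 annotated were listed, Iglv1 (chromosome 16, 19085017 to 19085500) measured 99.7, 83.1 and 105 in Irf8-OE, at least 30.7-fold above the floor. Iglv2 measured 10.5, 14.0 and 10.0, at least 3.69-fold above it. Neither had a read in a control. Per kb Iglv1 was at 213 to 270 and Iglv2 at 27.4 to 38.3, so that Iglv1 was above Iglv2 in every Irf8-OE sample. It took 89.3% of the lambda counts, although the transcripts are 96.7% identical and share a run of 104 bases.

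The other members were low and had no control reads. Among heavy chain segments, Ighv1-78 was the most uneven of those with means above 15, at 7.67, 16.8 and 29.1. Ighv5-12 was nearly equal at 14.4, 15.9 and 16.1, with a variance 0.0574 times that from counting alone, so this does not show a steadier level. Ighv1-9 measured 13.4, 20.5 and 7.03, Ighv1-53 measured 8.63, 11.2 and 14.1 and Ighv1-84 measured 8.63, 7.47 and 15.1. These 3 have the same gene length, and their order differed from sample to sample. Ighv5-17, the segment with the lowest level per kb among the members called higher, measured 7.67, 1.87 and 8.03. Among kappa segments, Igkv6-23 (15.3, 17.7 and 22.1) and Igkv8-21 (18.2, 20.5 and 13.1) reached 41.6 to 59.9 and 34.2 to 53.8 per kb and overlapped each other. Igkv12-89 and Igkv17-127 had the lowest kappa means in normalized counts, at 5.78 ± 3.30 and 5.85 ± 2.80 (SD, n = 3), and they and Ighv5-17 were the 3 members with a bound under 2-fold.

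Members with closely related sequences were at different levels in some pairs and overlapped in others. Gene lengths ran from 338 to 437 bases, and levels here are per kb. Igkv10-96 was at 571, 590 and 685 and Igkv10-94 at 38.7, 45.7 and 20.3. Ighv7-1 was at 127, 129 and 127 and Ighv7-4, to which it is 85.7% identical, at 15.4, 10.7 and 23.0. In both pairs every sample of the first lay above every sample of the second. Igkv4-72 (38.1, 27.9 and 25.0) and Igkv4-59 (7.81, 30.4 and 16.4), which are 95.4% identical, overlapped. Igkv17-127 (10.7, 13.0 and 25.2) and Igkv17-121 (7.92, 18.0 and 27.7), 97.5% identical and with a shared run of 143 bases, overlapped too and were both lowest in sample 1 and highest in sample 3.

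The sums over loci show how far Ighv1-23 set the control values. All members together summed to 1320, 1398 and 1393 in Irf8-OE (1370 ± 43.6, SD, n = 3) and to 575 and 582 in the controls (578 ± 4.32, SD, n = 2). The heavy chain members summed to 533, 584 and 569 in Irf8-OE and to 554 and 558 in the controls, so that the heavy chain sums of the groups overlapped. The kappa members summed to 677, 716 and 708 against 21.4 and 24.0, and the lambda members to 110, 97.1 and 115.5 against 0. Ighv1-23 alone made up 90.0% and 89.9% of the member counts in the controls, against 2.32% to 2.52% of those in Irf8-OE. Without it the sums were 1289, 1364 and 1358 in Irf8-OE and 57.3 and 58.5 in the controls. The members were listed because they differ in this contrast, and 45 of the 51 had 0 reads in both controls. The differences in the kappa and lambda sums, and in the sums without Ighv1-23, were thus favoured in advance by the listing. With 3 samples against 2, a one-sided exact permutation test cannot give a p below 0.1, so these sums are given without a test.

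**Figure D2:**
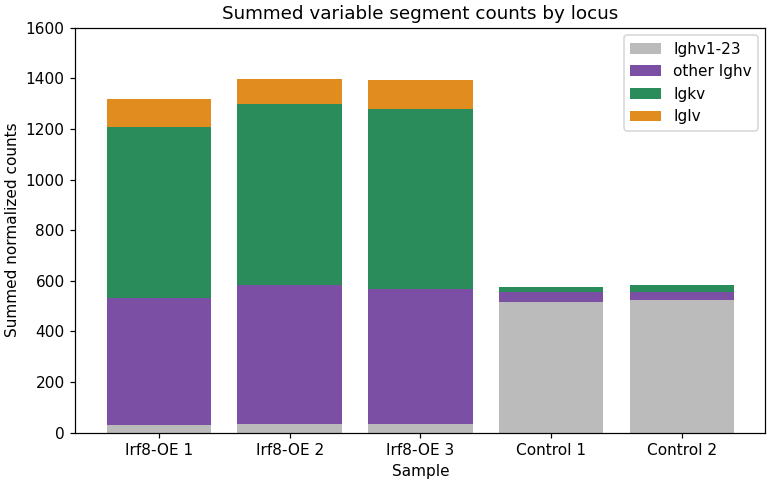
Summed normalized counts of the listed variable segments in each sample, stacked by locus, with Ighv1-23 shown apart from the other heavy chain segments. The Irf8-OE bars reach 1320 to 1398 and are mostly kappa and other heavy chain segments, whereas the control bars reach 575 and 582 and are mostly Ighv1-23. The segments were listed because they differ between these groups.

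In Irf8-OE the share of each locus varied little between samples, which held 1377 to 1497 member reads each. Kappa segments held 51.3%, 51.2% and 50.8% of the member counts (51.1% ± 0.246, SD, n = 3), heavy chain segments 40.4%, 41.8% and 40.9%, and lambda segments 8.35%, 6.95% and 8.29%. Kappa counts thus exceeded lambda counts in each sample. The closeness of the shares was not set against counting error, so it does not show a steady share. In the controls the kappa share was 3.71% and 4.13%, where Ighv1-23 held 90.0% and 89.9% of the member counts. Without Ighv1-23 the kappa share was 37.3% and 41.0% in the controls and 52.5%, 52.5% and 52.1% in Irf8-OE. The control kappa counts came from a single segment, with 19 and 25 reads. Most members entered the list with reads in Irf8-OE and none in the controls. The shares of the groups are therefore not like measures, and the control shares do not describe kappa use in the controls.

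Reads were spread over many segments in Irf8-OE and gathered on a single segment in the controls. Pielou's evenness, which is 1 when all 51 members are equally abundant and 0 when a single member holds everything, was 0.854, 0.865 and 0.835 in Irf8-OE (0.851 ± 0.0151, SD, n = 3) and 0.118 and 0.115 in the controls. The effective number of segments, the count of equally abundant segments that would give the same diversity, was 28.7, 30.0 and 26.7 in Irf8-OE and 1.59 and 1.57 in the controls. The most abundant segment of each Irf8-OE sample was Igkv10-96, with 15.5%, 15.2% and 17.7% of the member counts. Leaving Ighv1-23 out changed the evenness of Irf8-OE to 0.850, 0.861 and 0.830 and that of the controls to 0.360 and 0.323. Per kb of gene length the mean evenness in Irf8-OE was 0.850 and the mean kappa share 51.3%. The evenness is over the listed segments only, and most of them entered the list by having reads in Irf8-OE and none in the controls.

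**Figure D3:**
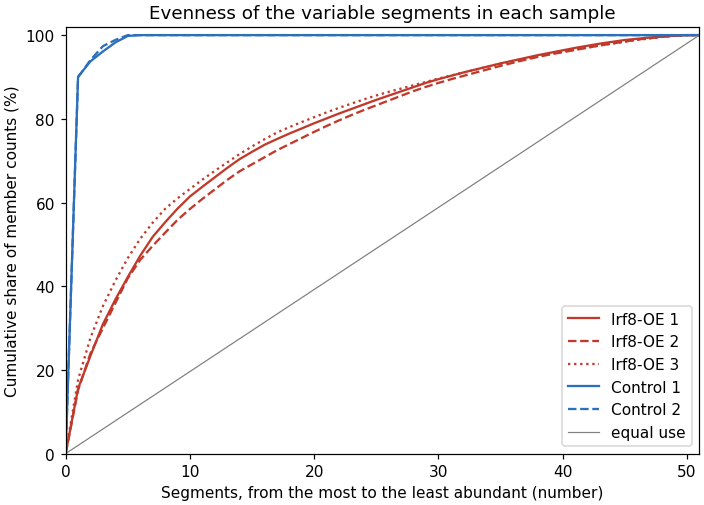
Cumulative share of the member counts against the number of segments, from the most to the least abundant in each sample, with a grey line for equal use of all 51. The control curves start at 90.0% and 89.9% with their first segment, while the Irf8-OE curves start at 15.2% to 17.7% and rise slowly.

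The same segments led in each Irf8-OE sample. Of the 10 most abundant members of a sample, 9 were shared by each pair of samples and 9 by all 3, and 12 members were in the 10 most abundant of any sample. Spearman's rho between samples over the 51 members was 0.80, 0.72 and 0.80, and Pearson's r on log2(normalized counts + 1) was 0.86, 0.84 and 0.88. These points share a library within each sample, and the low members carry few reads. Of the 50 members with reads in Irf8-OE, 12 were highest in sample 1, 18 in sample 2 and 20 in sample 3.

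The spread between Irf8-OE samples was smaller among the members with more reads. Over the 50 members with reads the median CV was 27.6%, against 13.1% over the 1346 listed genes with reads in Irf8-OE, and among genes with at least 100 reads over the Irf8-OE samples it was 12.1% for 11 members and 10.5% for 963 listed genes. Set against counting alone, the median ratio of variances was 1.42 for the members and 1.68 for the listed genes. The ratio of the highest to the lowest Irf8-OE sample was at least 2 in 22 members and under 1.5 in 17. Besides Ighv7-1, the smallest CVs were those of Ighv9-3 (7.67, 8.40 and 8.03) and Igkv8-26 (6.71, 7.47 and 7.03), from 25 and 22 reads. The variances of these 3 were 0.00276, 0.0178 and 0.0218 times that from counting alone, so their closeness does not show a steadier level. The most variable were Ighv10-1 (3.83, 19.6 and 9.04), Igkv1-88 (1.92, 15.9 and 12.1) and Igkv4-59 (2.88, 11.2 and 6.03), all of which were lowest in sample 1 and highest in sample 2. Igkv1-88 was also the member whose call was lost when either control was left out (adjusted p = 0.0520 and 0.0521 by limma).

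The heavy chain members came from 11 of the 16 annotated heavy chain families, and 21 of the 113 annotated heavy chain V genes (18.6%) were listed. Ighv1, the largest family, gave 9 members, 7 of them called higher and both members called lower. Its sum was 193 ± 6.50 (SD, n = 3) in Irf8-OE, or 34.4% of the heavy chain counts, against a mean of 530 in the controls, most of which was Ighv1-23. Ighv6, with Ighv6-3 as its only member, held 20.2% of the heavy chain counts in Irf8-OE and Ighv3, with Ighv3-6, held 12.3%. Ighv5 gave 3 members with a sum of 51.2 ± 1.47 (SD, n = 3) and 0 in the controls.

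The kappa members came from 14 of the 20 annotated kappa families, and 27 of 100 annotated kappa V genes (27%) were listed. Igkv10 held 33.3% of the kappa counts in Irf8-OE, nearly all of it on Igkv10-96, Igkv2 held 12.5% and Igkv15 held 11.2%. Igkv4, the largest family with 26 annotated V genes, gave 2 members and 2.70% of the counts. Igkv1 gave 4 members whose sum was almost equal in the samples, at 59.8 ± 0.420 (SD, n = 3). Of its members, Igkv1-110 measured 27.8, 11.2 and 31.1 and Igkv1-133 measured 13.4, 23.3 and 11.0. They had 72 and 50 reads over the Irf8-OE samples. With so few reads the closeness of the family sum does not show a steadier level.

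The abundant segments lay at different distances from the joining segments in the heavy chain and kappa loci. Of the 57 annotated heavy chain V genes nearest to the joining segments, up to 1182 kb away, 15 were listed, and they held 83.0% of the heavy chain counts in Irf8-OE. Of the 56 farther ones 6 were listed. At the kappa locus, 11 of the 50 annotated V genes up to 1314 kb away were listed, with 19.1% of the kappa counts, and 16 of the 50 farther ones, with 80.9%. The kappa V genes lie in both orientations, and the 14 members in the orientation opposite to the joining segments, which rearrange by inversion, of 62 annotated, held 55.2% of the kappa counts, or 34.6% without Igkv10-96. The 13 members in the same orientation, of 38 annotated, held the remaining 44.8%.

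**Figure D4:**
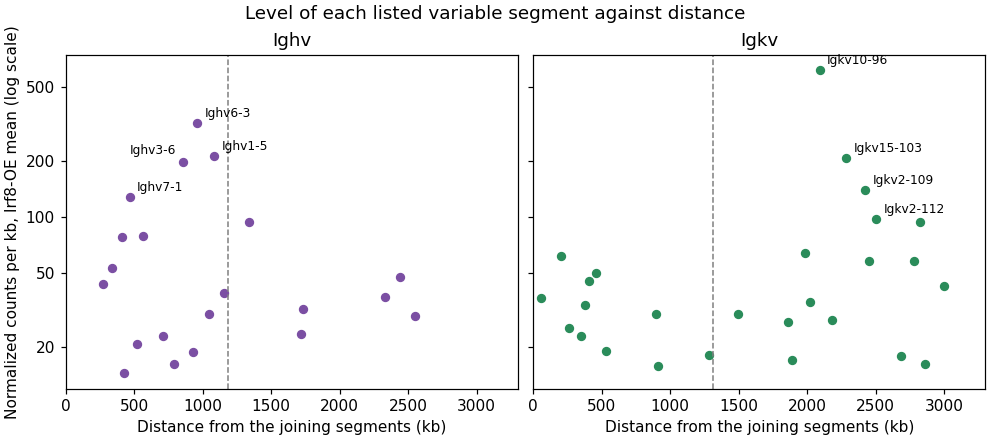
Mean Irf8-OE level of each listed variable segment gene in normalized counts per kb (log axis) against its distance from the joining segments in kb, with a dashed line at the median distance of all annotated V genes of the locus (1182 kb for heavy chain and 1314 kb for kappa). The 4 highest heavy chain segments lie left of the line and the 4 highest kappa segments right of it.

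Variable and constant segments of a chain are read from the same transcript once rearranged, so their levels were set side by side per kb of gene length. The V sums hold listed segments only. The gene lengths of the constant genes ran from 454 (Iglc1) to 2678 bases (Ighg2b). The ratios depend on both, so a value near 1 does not show equal levels. In Irf8-OE the kappa V members summed to 0.718, 0.830 and 0.654 times the level of Igkc, and in the controls to 0.574 and 0.514 times. The heavy chain V members summed to 0.799, 0.980 and 0.844 times the sum of the listed heavy chain constant genes in Irf8-OE, but to 17.2 and 14.4 times it in the controls. The control excess lay with Ighv1-23, whose level was 16.2 and 13.6 times that of Ighm in the controls and 0.0805, 0.0985 and 0.0871 times it in Irf8-OE. Iglv1 was at 1.86, 1.23 and 2.10 times Iglc1 in Irf8-OE, and Iglv2 at 1.41, 1.25 and 0.984 times Iglc2. Neither lambda constant gene had a read in a control.

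**Figure D5:**
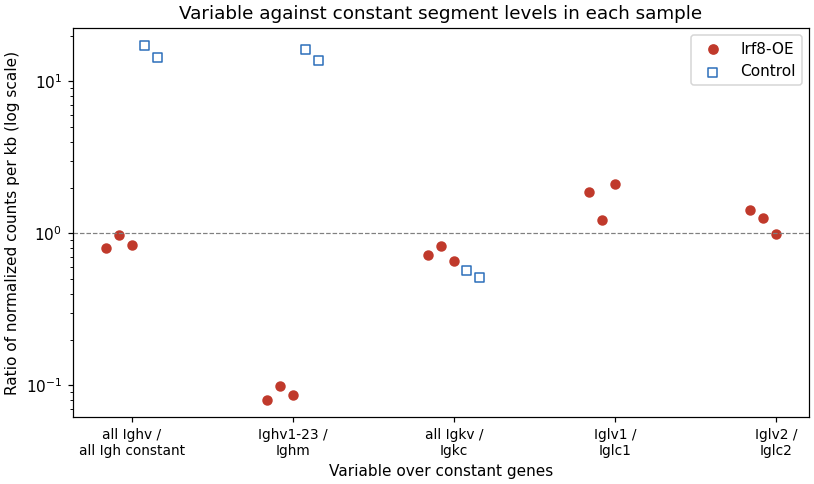
Ratio of variable to constant segment levels per kb of gene length in each sample, on a log axis, with filled points for Irf8-OE, open squares for controls and a dashed line at 1. The ratios lie between 0.654 and 2.10 for all chains in Irf8-OE except for Ighv1-23 alone against Ighm, while in the controls the heavy chain ratios lie at 13.6 or above.

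The constant genes and other genes of antibody production were read beside the segments. All 9 listed constant genes, of 13 annotated, were called higher, in a table where 58.1% of genes were. Ighm measured 2047, 1834 and 2169 in Irf8-OE and 172 and 206 in the controls. Igkc measured 1365, 1253 and 1574 against 52.8 and 66.2. Igha measured 1478, 1231 and 1360 against 0 and 1.92. Ighm and Igkc were thus present in both groups, while Igha had at most 2 reads in a control. Jchain, the chain that joins IgA and IgM into polymers, measured 278, 331 and 320 against 0 and 3.84.

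Markers of B-lineage cells moved with the segments in part. Of 30 B cell markers 7 were listed, 6 called higher and 1 lower. Of all listed genes 58.1% were called higher and 41.0% lower. The 7 listed markers summed to 237 to 255 in Irf8-OE and 179 to 225 in the controls. Cd79a and Cd79b, the signalling partners of the B cell receptor, measured 41.2, 22.4 and 22.1 against 5.62 and 6.72, and 39.3, 33.6 and 37.2 against 13.5 and 13.4. Pou2af1, a coactivator of immunoglobulin transcription, measured 22.0, 20.5 and 18.1 against 1.12 and 0.960, while Bank1, an adaptor of B cell signalling, was lower at 72.8, 70.0 and 80.3 against 140 and 178. Of 30 plasma cell markers 4 were listed, with Jchain, Prdm1 and Mzb1 called higher and Pim2 lower. The listed sums were 615 to 675 in Irf8-OE and 528 to 564 in the controls. Pim2 measured 173, 168 and 156 in Irf8-OE and 480 and 450 in the controls, and it made up most of the control sums. Prdm1 measured 145, 150 and 174 against 84.3 and 71.0, and Mzb1 measured 19.2, 25.2 and 15.1 against 0 and 2.88. Defining markers such as Ms4a1, Pax5, Sdc1 and Xbp1 were not listed. The part of B-lineage cells in the segment values was not tested.

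Markers of further cell types were read beside the segments. Of all listed genes 58.1% were called higher and 41.0% lower. The table was chosen by this same contrast, so a difference was fixed in advance for any listed marker. Of 12 mast cell and basophil markers 9 were listed, with sums of 35749 to 39516 in Irf8-OE and 230513 to 234955 in the controls. Here 7 were called lower, with Cpa3 and Kit among them, and the basophil proteases Mcpt8 and Prss34 were called higher. All 6 listed macrophage markers of 11 were called higher (sums of 21667 to 26514 against 4140 to 4324), as were all 6 listed stromal markers of 11 (10723 to 11756 against 2526 to 2597) and all 6 listed T cell markers of 12 (96.8 to 114 against 15.7 to 29.7). Those T cell markers included the receptor constant genes Trbc1 and Trbc2, whereas the other 5 listed T cell receptor genes were called lower, and all 7 together summed to 138 to 179 in Irf8-OE and 1162 to 1306 in the controls. The part of these cell types in the segment values was not tested either.

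Near-identical segments can share reads, and how reads that fit several segments were counted is not given in the sources used here. The longest run of bases that a member shared with another annotated V segment was 21 to 220 bases, with a median of 92. In 4 members it was at least as long as a read of 150 bases. These were Ighv1-72 with Ighv1-62-3 (220 bases), Igkv5-43 with Igkv5-45 (193), Igkv3-5 with Igkv3-10 (159) and Igkv6-17 with Igkv6-25 (152), and their values are uncertain for that reason. None of them was among the 10 segments with the highest level per kb.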

How the data were processed

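RNA-seq of 3 Irf8-OE and 2 control BMDC samples was read as paired ends. The submitters' processing notes name fastp, HISAT2 2.0.5, featureCounts 1.5.0-p3, DESeq2 1.20.0, edgeR 3.22.5 and the build mm10, without roles. The authors deposited signal values that are normalized counts (reads over the sample's size factor) for the 1355 genes that passed their thresholds. They also deposited their own fold change, p-value and adjusted p-value and 2 group means, which were not used. In each sample 100% of values were whole multiples of 1 step (tolerance 0.01 reads), which gave back the reads. A floor of 3 reads was 2.80 to 3.37 normalized counts. Floors and intervals cover counting error only.

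Samples were grouped by their titles. limma 3.58.1 in R 4.3.3 (eBayes with trend) was fitted on log2(normalized counts + 1) over all 1355 genes, without a filter, and a gene was called where the absolute log2 fold change passed 1 and the Benjamini-Hochberg adjusted p stayed under 0.05. edgeR 4.0.16 and DESeq2 1.42.0 on the recovered reads were alternatives; they called 51 members each. The tests were tried on simulated data. Annotation and sequences came from GENCODE vM21, and positions are of GRCm38. Promoters and proteins of the members were not used here.

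Named members were the 8 Ighv and 8 Igkv with the highest mean per kb over the 5 samples, both Iglv, the pseudogene, the members lower in Irf8-OE, the 3 smallest and 3 largest CVs over Irf8-OE, and the 3 highest at 0 in both controls. Other members were named after their values were seen. The members and the gene lists were chosen with earlier results of these data known. The lists of segment recombination and of B cell receptor signalling are not reported here.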

Additional observations from a re-analysis of the deposited data

How the results depend on the processing

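The table holds only genes already called in this contrast, each group has few samples, and most members rest on few reads, so the calls say little of stability. For the named members, 341 of 354 values under an alternative kept their direction and call, 13 kept the direction and lost the call, and 0 reversed. The losses came with 10 added in place of 1 (6 members), quantile normalization (5) and leaving out Control 1 or Control 2 (Igkv1-88 each time).

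Requiring each sample of a group to reach 10 normalized counts left 27 members to test, of which 27 were called, 26 higher and 1 lower, since Ighv1-32 and the low members were not tested. Quantile normalization called 32 members higher. With 10 added 1 member was called lower, Ighv1-32 falling to a log2 fold change of -0.91. Without the pseudogene 1 member was called lower. Leaving out each sample in turn gave 50 to 51 members called, 48 to 49 higher and 2 lower. Leaving out an Irf8-OE sample gave an evenness of 0.844 to 0.859 and a kappa share of 51.0% to 51.3%. Without Igkv10-96 the evenness was 0.885 and the kappa share 41.7%. Pseudocounts of 0.1, an adjusted p under 0.01, edgeR and DESeq2 each called 51 members. Chosen after seeing the data, the tests on reads without Irf8-OE sample 3 called 51 (edgeR) and 48 (DESeq2), the latter without Ighv5-17, Igkv17-121 and Igkv17-127. For none of these settings is the share of all listed genes called given here, so the counts describe the members alone.

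With the sample numbers as a replicate block, 51 members were called, 49 higher and 2 lower, by the numbers of the titles and by those of the descriptions. The numbers are not said to pair the samples. Over the 1355 genes, the deviations of same-numbered samples correlated by 0.03 and 0.02 (titles) and by -0.02 and 0.0089 (descriptions).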

Other observations

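Of the 7 listed T cell receptor genes, which were named after their values were seen, 5 were called lower and 2 higher in Irf8-OE. The gamma chain genes, which lie at a locus of their own, were lower in Irf8-OE. Tcrg-C1 measured 95.9, 107 and 142 in Irf8-OE and 977 and 1120 in the controls (log2 fold change -3.19, SE 0.17, limma). Trgj1, a gamma joining segment, measured 5.75, 6.54 and 5.02 against 85.4 and 80.6, Tcrg-C2 measured 7.67, 5.60 and 6.03 against 52.8 and 51.8, and Tcrg-C3 measured at most 0.959 against 12.4 and 21.1. Of the beta chain genes, the variable segment Trbv13-2 was lower (13.4, 12.1 and 8.03 against 34.8 and 30.7), whereas the constant genes Trbc1 and Trbc2 were higher (1.92, 13.1 and 7.03 against 0 and 0, and 12.5, 11.2 and 11.0 against 0 and 1.92). The antigen receptor genes of the table were the 51 members, 9 constant genes and these 7 T cell receptor genes. Of them 7 were lower in Irf8-OE, namely Ighv1-23, Ighv1-32 and 5 T cell receptor genes. Of all listed genes 41.0% were called lower. The reason for the lower values was not tested.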
